A study of Mus musculus with 12 samples.

Results

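The 43 genes described here encode the regulatory, structural and stretch-sensing proteins of the cardiac sarcomere, without the myosins and actins. They were taken by name from the 55416 genes of the table, and all 43 were found. The members fall into 5 groups by role: 10 thin filament regulators, 5 genes of the thick filament, titin and the M-band, 12 Z-disc genes, 8 genes of the stretch response and cytoskeleton and 8 genes of assembly and turnover. They were measured by sequencing of polyadenylated RNA from cultured neonatal mouse cardiomyocytes, in 12 libraries that make 4 groups of 3. The groups were phenylephrine (PE) with the lincRNA-p21 GapmeR, PE with the negative-control GapmeR, PBS with the lincRNA-p21 GapmeR and PBS with the negative-control GapmeR. PE, an alpha1-adrenergic agonist that makes cardiomyocytes grow, was given for 24 hours. A GapmeR is a chimeric antisense oligonucleotide through which RNase H cleaves the matching RNA, so every library, controls included, comes from cells that received one. Knockdown below means the lincRNA-p21 GapmeR and control the negative-control GapmeR. The labels name cardiomyocytes as the cell type and state neither separate cultures nor animals for the replicates, so p-values here rest on the spread among libraries alone, which may be technical. The design asks what PE does to these genes, what the knockdown does with and without PE, and whether the response to PE differs with the knockdown.

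The sarcomere is the contractile unit of the heart muscle cell. Its thin filaments of actin carry tropomyosin and the troponin complex, which let myosin bind when calcium rises. Thin filaments are anchored in the Z-disc by alpha-actinin, and thick filaments are held together in the M-band, with titin as a spring that spans from one to the other. Several Z-disc and titin-bound proteins are known to move between the sarcomere and the nucleus when the cell is stretched, and PE is a standard agonist for studying hypertrophic growth in cultured cardiomyocytes.

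The sequences around the transcription starts of 5 members are shown because 4 of them are among the 5 members with the largest rises with PE in control cells, and the other, Fhl2, changed in the opposite direction. They run 5′ to 3′ from 250 bases before to 50 bases after a start in RefSeq (build GRCm38.p6), and capitals mark matches on either strand to the motifs searched.
Xirp2 (chr2:67445752-67446051, plus strand): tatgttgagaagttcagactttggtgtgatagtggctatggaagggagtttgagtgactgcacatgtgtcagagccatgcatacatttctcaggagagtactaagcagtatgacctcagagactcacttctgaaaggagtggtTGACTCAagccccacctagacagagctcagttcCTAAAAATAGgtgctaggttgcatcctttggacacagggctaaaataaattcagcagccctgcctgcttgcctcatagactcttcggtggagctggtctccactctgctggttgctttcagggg
Myoz2 (chr3:123034938-123035237, minus strand): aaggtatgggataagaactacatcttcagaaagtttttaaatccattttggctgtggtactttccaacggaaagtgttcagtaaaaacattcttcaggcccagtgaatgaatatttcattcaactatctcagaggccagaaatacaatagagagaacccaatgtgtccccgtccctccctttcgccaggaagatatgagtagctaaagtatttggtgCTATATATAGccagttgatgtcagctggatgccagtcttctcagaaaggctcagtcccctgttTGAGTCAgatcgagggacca
Csrp3 (chr7:48848002-48848301, minus strand): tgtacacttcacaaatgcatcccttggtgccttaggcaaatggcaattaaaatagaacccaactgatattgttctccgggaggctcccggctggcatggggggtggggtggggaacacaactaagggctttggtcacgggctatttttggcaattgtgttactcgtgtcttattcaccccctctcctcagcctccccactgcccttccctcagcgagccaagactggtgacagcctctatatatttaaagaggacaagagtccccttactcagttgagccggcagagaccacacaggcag
Ankrd1 (chr19:36119795-36120094, minus strand): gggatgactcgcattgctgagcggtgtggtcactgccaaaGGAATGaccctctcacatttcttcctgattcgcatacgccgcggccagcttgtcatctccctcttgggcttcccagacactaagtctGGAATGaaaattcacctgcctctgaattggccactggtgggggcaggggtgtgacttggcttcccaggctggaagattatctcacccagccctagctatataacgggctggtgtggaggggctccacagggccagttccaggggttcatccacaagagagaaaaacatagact
Fhl2 (chr1:43196712-43197011, minus strand): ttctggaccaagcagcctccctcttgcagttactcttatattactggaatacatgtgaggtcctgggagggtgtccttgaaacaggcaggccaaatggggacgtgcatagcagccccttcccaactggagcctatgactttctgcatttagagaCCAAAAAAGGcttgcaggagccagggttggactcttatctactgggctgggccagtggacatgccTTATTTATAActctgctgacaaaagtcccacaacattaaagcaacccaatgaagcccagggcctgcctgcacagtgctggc
The Xirp2 window holds an AP-1 match (TGANTCA) 107 bases and a MEF2 box 74 bases before the start. Myoz2 has a MEF2 box 33 bases before the start and an AP-1 match 30 bases after it. In Ankrd1, the M-CAT motif (CATTCC), the element that TEAD factors bind, is present on the opposite strand at 210 and 123 bases before the start. In Fhl2, a CArG box, the element of serum response factor, lies 96 bases before the start, and a MEF2 box lies 31 bases before it and overlaps a TATA match. The Csrp3 window holds none of the motifs searched. Of the 43 members, 36 had a window, with 1 window taken per gene. For members it was the window nearest the annotated gene start, and for the background the first one listed, so the choice differed. Some member windows were still far from that start: Smyd1 by 59952, Fhl1 by 47896, Tnni1 by 19987 and Myom1 by 16924 bases. Fhl1 and Myom1 are among those with a CArG box. M-CAT was in 11 of these 36 (30.6%), against 14.6% of 27025 promoter windows of the same length. The MEF2 box was in 6 (16.7%, against 3.26%), the CArG box in 4 (11.1%, against 1.57%) and AP-1 in 5 (13.9%, against 7.93%). TATAAA was in 6 (16.7%, against 14.2%) and the FOXO motif GTAAACA in 2 (5.56%, against 3.55%). Besides Ankrd1, M-CAT matches were found in the windows of Tnnt2, Tnnc1, Tpm1, Tmod1, Ttn, Mypn, Flnc, Ankrd23, Hspb7 and Trim63. These matches describe the letters of the windows and were not tested.

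The deposited values are normalised read counts, that is reads per gene divided by a size factor of each library. Reads assigned to genes were 21325485 to 22139681 per library, and mitochondrial genes held 4.33% to 10.7% of them. The lowest count of any member in a library was 16 reads for Ankrd23 and 87 for Xirp2, and every other member had at least 158 reads in each library, so counting error is largest for those 2 genes, followed by Tnnt1. The GapmeR lowered its target lincRNA-p21 (Trp53cor1, ENSMUSG00000085912.3) by 2.03 ± 0.30 on the log2 scale in PE and by 2.10 ± 0.30 in PBS (limma, adjusted p = 9.2e-05 and 2.0e-04). Libraries varied within groups: PBS control replicate 2 stood above its group for the members, with a median deviation of 0.13 on the log2 scale, and PE control replicate 1 with 0.10, while the other 10 libraries lay between -0.06 and 0.07. Over all genes that averaged at least 50, the median absolute deviation from the group was 0.172 in PBS knockdown replicate 2, 0.121 in PBS knockdown replicate 1, 0.116 in PE knockdown replicate 1 and 0.105 in PBS control replicate 2, against 0.0880 or less in the others.

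Per kilobase of exon, the most abundant member in PBS control cells was Tnnc1 (21388), the calcium-binding troponin C, followed by Tnni3 (21210), cardiac troponin I. Ankrd1 (17676), a stretch-regulated protein bound to titin, and Cryab (16991), a small heat shock protein, came before the tropomyosin gene Tpm1 (15804) and cardiac troponin T, Tnnt2 (14340). Mybpc3, Hspb7, Actn2 and Des followed with 13914, 13496, 10746 and 9059 per kilobase. At the other end were Tnnt1 (91.5), Xirp2 (20.2) and Ankrd23 (9.8). Titin, whose annotated exons are very long, had 497 per kilobase although its normalised read count was among the highest. The exon length used joins all annotated exons of a gene, 1041 bases for Tnnc1 and 7752 for Tnnt2, so this order depends on the annotation. Without division by length, Tnnt2 averaged 111166 and Tnnc1 22265 normalised reads in PBS control libraries. The defining markers of cardiomyocytes were present in all libraries. Of 12 skeletal muscle markers, 3 (Myf5, Myf6 and Pax7) had no read in any library and 6 averaged under 1, and the list summed to 3298 to 3943 in PE knockdown, 4138 to 5343 in PE control, 3335 to 3989 in PBS knockdown and 3361 to 3944 in PBS control libraries, most of it from Ckm, a creatine kinase that heart muscle also makes.

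PE changed members of all 5 role groups. In control cells 19 of the 43 members were higher and 6 lower with PE than with PBS, against 12.6% of all 21799 genes tested that were higher and 12.8% that were lower (limma, Benjamini-Hochberg adjusted p of at most 0.05, the threshold used throughout). In knockdown cells 15 were higher and 9 lower, against 13.4% and 14.0% of all genes. Well-measured genes are called more often: of the 12113 genes that averaged at least 50 normalised reads, PE raised 2295 and lowered 2083 in control cells and raised 2389 and lowered 2527 in knockdown cells. The median log2 change of the members was 0.28 in control and 0.14 in knockdown cells, with medians of 0.011 and -0.0037 for those 12113 genes. The same 14 members rose in both cell groups, which is 14 of 19 and 14 of 15, and 4 fell in both, 4 of 6 and 4 of 9. The members left uncalled lay between -0.35 and 0.32 in control cells (18 genes) and between -0.23 and 0.26 in knockdown cells (19 genes).

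**Figure D1:**
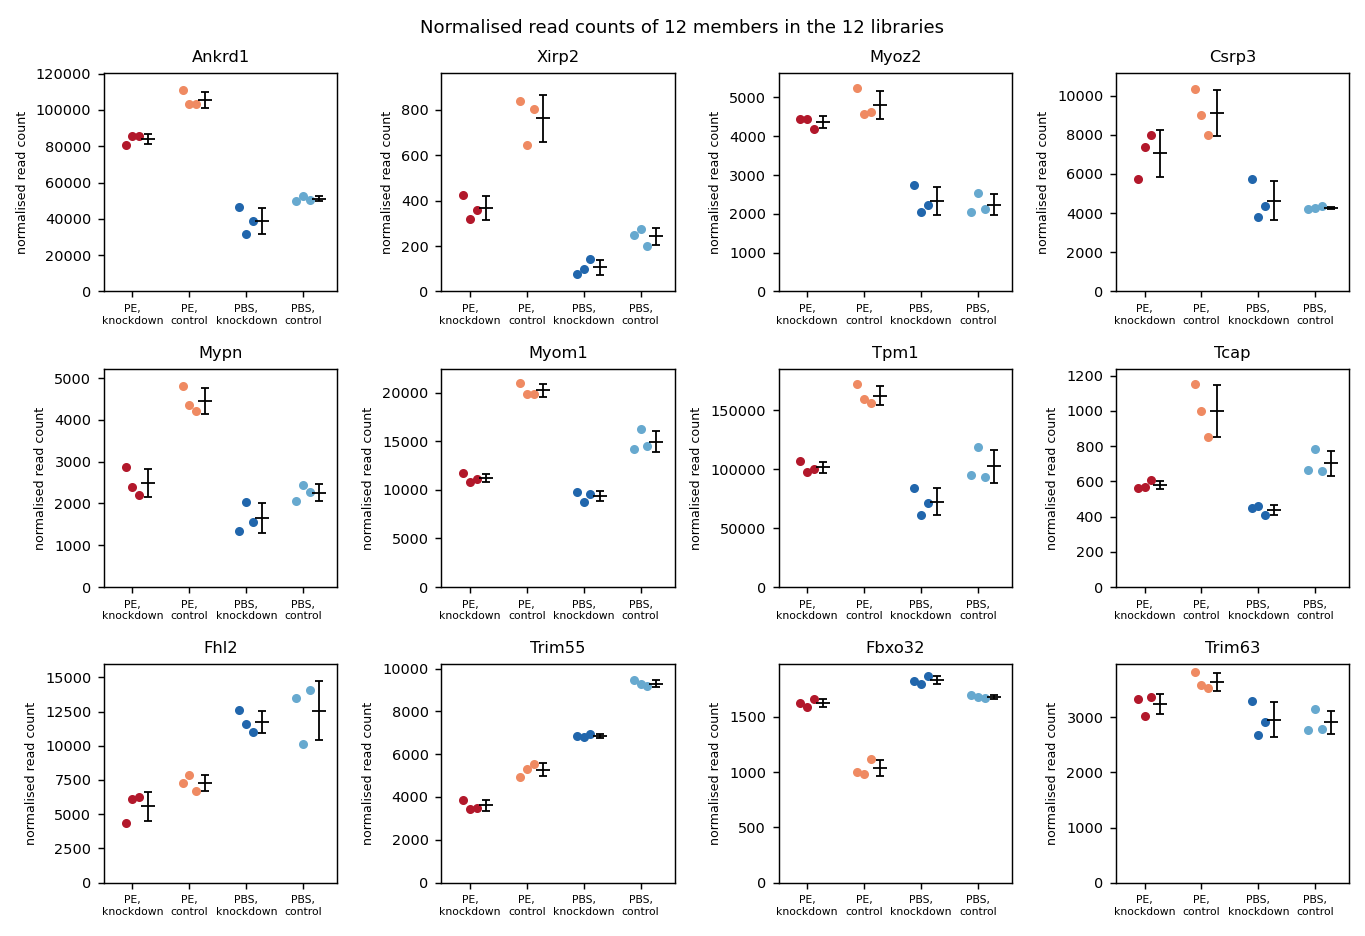
Normalised read counts of 12 members in the 12 libraries, with 1 point per library and bars for the mean and SD of 3 libraries; each axis starts at 0. Ankrd1, Xirp2, Myoz2 and Csrp3 were higher with PE in both cell groups, Fhl2 and Trim55 were lower, and Fbxo32 was low only in the 3 PE control libraries, at 987 to 1116.

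In the stretch response and cytoskeleton group, PE raised 5 of 8 members and lowered 1 in control cells, and raised 5 and lowered 2 in knockdown cells. Ankrd1 (ENSMUSG00000024803.10, GRCm38 chromosome 19, 36111961 to 36120099, minus strand), which encodes the cardiac ankyrin repeat protein CARP, had 80708, 85437 and 85443 normalised reads in PE knockdown and 110690, 103150 and 103050 in PE control libraries. It had 46294, 31677 and 38813 in PBS knockdown and 49825, 52603 and 50607 in PBS control libraries. All 6 PE libraries were above all 6 PBS libraries. The log2 change with PE was 1.12 ± 0.14 in knockdown and 1.05 ± 0.14 in control cells (limma, adjusted p = 6.1e-06 and 1.4e-05; errors of log2 changes are limma standard errors).

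Xirp2 (ENSMUSG00000027022.15, chromosome 2, 67446002 to 67526614, plus strand) encodes an actin-binding Xin repeat protein of the intercalated disc. Its values were 425, 318 and 357 in PE knockdown and 838, 643 and 804 in PE control libraries, and 78.9, 99.4 and 143 in PBS knockdown and 250, 277 and 201.0 in PBS control libraries. No group overlapped another, and PE raised it by 1.80 ± 0.18 in knockdown and 1.65 ± 0.18 in control cells on the log2 scale (limma, adjusted p = 4.8e-07 and 1.3e-06). Ankrd23 (ENSMUSG00000067653.13, chromosome 1, 36530188 to 36536883, minus strand), a relative of Ankrd1 that also binds titin, was the least abundant member. It had 62.1, 73.8 and 40.7 in PE knockdown and 87.3, 88.2 and 72.7 in PE control libraries, and 15.4, 29.8 and 22.0 in PBS knockdown and 15.2, 35.8 and 28.3 in PBS control libraries. Its rise of 1.36 ± 0.31 in knockdown and 1.69 ± 0.31 in control cells kept PE and PBS libraries apart (limma, adjusted p = 0.0022 and 3.3e-04).

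Des, the gene of the intermediate filament desmin, rose by 0.62 ± 0.16 in knockdown and 0.90 ± 0.16 in control cells (limma, adjusted p = 0.0058 and 2.5e-04), although PBS control replicate 2, at 42935, was above the other PBS libraries at 28506 to 30906. Fhl1, a LIM-only protein that binds titin, rose by 0.60 ± 0.09 in knockdown and 0.72 ± 0.09 in control cells (limma, adjusted p = 4.5e-05 and 5.4e-06). Fhl2 (ENSMUSG00000008136.15, chromosome 1, 43123074 to 43196984, minus strand), the other LIM-only gene, moved the opposite way. It had 4318, 6121 and 6261 in PE knockdown and 7248, 7844 and 6683 in PE control libraries, and 12589, 11560 and 11007 in PBS knockdown and 13514, 10107 and 14063 in PBS control libraries. Every PE library was below every PBS library, and PE lowered it by -1.09 ± 0.14 in knockdown and -0.78 ± 0.14 in control cells on the log2 scale (limma, adjusted p = 9.3e-06 and 3.6e-04). Klhl31, a BTB-kelch protein of muscle, fell by 0.33 ± 0.10 in knockdown cells (limma, adjusted p = 0.018) and was not called in control cells, and Xirp1, the paralogue of Xirp2, was called in neither.

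Among the Z-disc genes PE raised 7 of 12 and lowered none in control cells, and raised 6 and lowered 2 in knockdown cells. Myoz2 (ENSMUSG00000028116.14, chromosome 3, 123006206 to 123035015, minus strand) encodes calsarcin-1, which ties the phosphatase calcineurin to alpha-actinin. Its values were 4449, 4455 and 4188 in PE knockdown and 5233, 4581 and 4615 in PE control libraries, and 2741, 2036 and 2240 in PBS knockdown and 2058, 2548 and 2118 in PBS control libraries. PE and PBS libraries did not overlap, with log2 rises of 0.91 ± 0.11 in knockdown and 1.11 ± 0.11 in control cells (limma, adjusted p = 5.6e-06 and 4.7e-07). Csrp3 (ENSMUSG00000030470.16, chromosome 7, 48830398 to 48848033, minus strand) is the gene of the muscle LIM protein, a Z-disc partner of telethonin. It had 5729, 7396 and 8008 in PE knockdown and 10336, 9027 and 7986 in PE control libraries, and 5723, 3811 and 4354 in PBS knockdown and 4221, 4247 and 4345 in PBS control libraries. In control cells PE and PBS libraries were far apart, while in knockdown cells the lowest PE and the highest PBS library nearly met. The log2 changes were 0.61 ± 0.14 in knockdown and 1.09 ± 0.14 in control cells (limma, adjusted p = 0.0028 and 9.7e-06).

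Pdlim5 (ENSMUSG00000028273.16, chromosome 3, 142239590 to 142395696, minus strand), a PDZ-LIM adaptor that binds alpha-actinin, had 14721, 15028 and 15488 in PE knockdown and 19258, 19551 and 20547 in PE control libraries. It had 9674, 8552 and 9366 in PBS knockdown and 12074, 11283 and 11702 in PBS control libraries, so that all 4 groups were separate. It rose by 0.71 ± 0.10 in knockdown and 0.76 ± 0.10 in control cells (limma, adjusted p = 1.3e-05 and 6.2e-06). Mypn, which encodes myopalladin, rose by 0.60 ± 0.13 and 0.98 ± 0.13 and Tcap, the titin cap telethonin, by 0.40 ± 0.12 and 0.50 ± 0.12 in knockdown and control cells (limma, adjusted p = 0.0017 and 1.4e-05 for Mypn, 0.013 and 0.0029 for Tcap). Nrap, a scaffold of myofibril assembly, rose by 0.50 ± 0.11 and Flnc, filamin C, by 0.48 ± 0.17 in control cells (limma, adjusted p = 0.0020 and 0.041), and neither was called in knockdown cells. Nebl, nebulette, rose by 0.39 ± 0.11 in knockdown cells, where Synpo2l, an actin-bundling protein of the Z-disc, fell by 0.47 ± 0.15 and Palld, palladin, by 0.44 ± 0.13 (limma, adjusted p = 0.014, 0.023 and 0.016). Actn2, the alpha-actinin that builds the disc, and Ldb3, which binds it, were called in neither cell group.

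**Figure D2:**
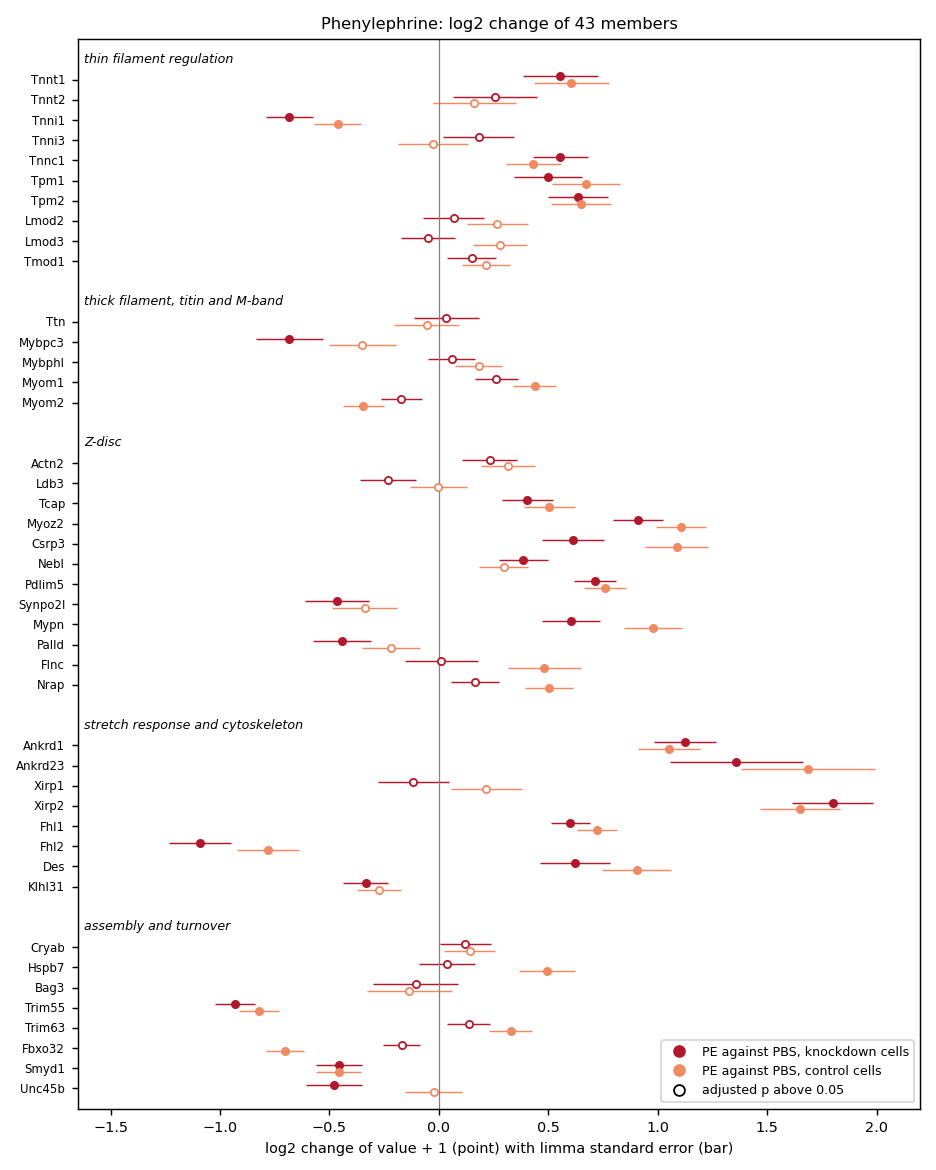
Log2 change with PE against PBS for the 43 members, ordered by role, with limma standard errors as bars; dark red points are knockdown cells and orange points control cells, and open points have an adjusted p above 0.05. Ankrd23 and Xirp2 lie farthest right in both cell groups, and Fhl2 and Trim55 farthest left.

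The tropomyosins and troponin C were among the thin filament genes that rose. PE raised 4 of 10 and lowered 1 in both cell groups, and these were the same genes. Tpm1, alpha-tropomyosin, rose by 0.50 ± 0.16 in knockdown and 0.67 ± 0.16 in control cells, and Tpm2, beta-tropomyosin, by 0.63 ± 0.14 and 0.65 ± 0.14 (limma, adjusted p = 0.022 and 0.0032 for Tpm1, 0.0016 and 0.0014 for Tpm2). Tnnt1, troponin T of slow skeletal muscle, rose by 0.56 ± 0.17 and 0.60 ± 0.17 and Tnnc1, troponin C, by 0.56 ± 0.13 and 0.43 ± 0.13 (limma, adjusted p = 0.020 and 0.013 for Tnnt1, 0.0022 and 0.015 for Tnnc1). Tnni1 (ENSMUSG00000026418.17, chromosome 1, 135779434 to 135810989, plus strand), troponin I of slow skeletal muscle and of the fetal heart, was the one that fell. It had 11127, 13375 and 13589 in PE knockdown and 15212, 14411 and 14012 in PE control libraries, and 21724, 20069 and 19229 in PBS knockdown and 19667, 20213 and 20238 in PBS control libraries. All PE libraries were below all PBS libraries, with log2 changes of -0.68 ± 0.11 in knockdown and -0.46 ± 0.11 in control cells (limma, adjusted p = 6.6e-05 and 0.0029). The adult cardiac isoforms Tnnt2 and Tnni3, the pointed-end cap Tmod1 and the leiomodins Lmod2 and Lmod3, which elongate thin filaments at that end, were not called with PE in either cell group. For Tnnt2 this depended on the libraries kept. Without replicate 1 of PE knockdown and replicate 2 of both PBS groups, a choice described below, its rise of 0.36 in control cells was called (limma, adjusted p = 0.020).

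The switch from Tnni1 to Tnni3 accompanies maturation of the heart around birth, and Tnnt1 is a minor form beside Tnnt2. The percentages below divide by the joined exon length, 3600 bases for Tnni1, 2063 for Tnni3, 2204 for Tnnt1 and 7752 for Tnnt2. Their level therefore depends on the annotation, while differences in log2 ratio between libraries do not. Per kilobase of exon, Tnni1 amounted to 13.8%, 20.7% and 21.1% of Tnni3 in PE knockdown and 18.5%, 21.2% and 19.9% in PE control libraries. In PBS knockdown libraries it was 32.3%, 32.9% and 34.5% and in PBS control libraries 30.9%, 20.3% and 30.7%. The knockdown libraries were apart between PE and PBS, whereas PBS control replicate 2, where Tnni3 was high (57015, against 36451 and 37805), fell among the PE control libraries. The log2 ratio differed between PE and PBS by -0.87 in knockdown and -0.44 in control cells (exact permutation test, two-sided, p = 0.1 and 0.2, where 0.1 is the smallest p that 3 against 3 libraries allow). Tnnt1 amounted to 0.888%, 0.962% and 0.897% of Tnnt2 in PE knockdown and 0.867%, 0.893% and 0.884% in PE control libraries, and to 0.806%, 0.647% and 0.783% in PBS knockdown and 0.743%, 0.545% and 0.672% in PBS control libraries. Each PE library was above each PBS library, and the log2 ratio was higher with PE by 0.30 in knockdown and 0.44 in control cells (exact permutation test, two-sided, p = 0.1 for both). The lowest ratio, 0.545%, was again in PBS control replicate 2, where Tnnt2 was high (142655, against 97962 and 92881). Between knockdown and control cells the ratios gave p = 0.8 and 0.1 for troponin I and 0.2 and 0.3 for troponin T in PE and PBS (exact permutation tests, two-sided), so none of the 8 comparisons could reach 0.05.

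**Figure D3:**
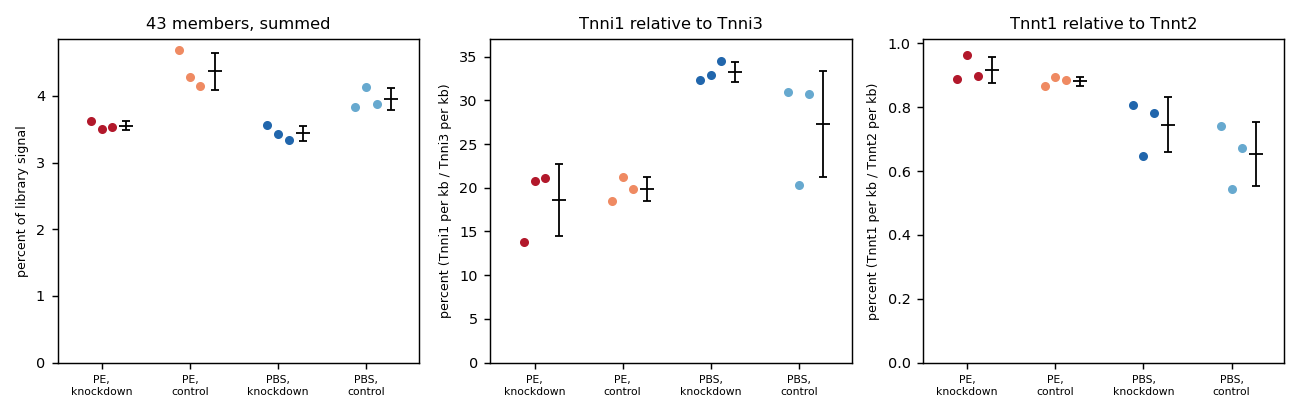
From left to right, the share of library signal held by the 43 members, Tnni1 as a percent of Tnni3 and Tnnt1 as a percent of Tnnt2 (both per kilobase of exon), with 1 point per library and bars for the mean and SD of 3 libraries; axes start at 0. The member share was lowest in the 6 knockdown libraries, at 3.34% to 3.63%, and the troponin I ratio of PBS control replicate 2 (20.3%) lies apart from the other PBS libraries.

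In the thick filament, titin and M-band group, Myom1 and Myom2 were called with PE in control cells and Mybpc3 in knockdown cells. Myom1, the myomesin that cross-links thick filaments, rose by 0.44 ± 0.10 in control cells and Myom2, its relative, fell by 0.35 ± 0.09 (limma, adjusted p = 0.0025 and 0.010). Their changes of 0.26 ± 0.10 and -0.17 ± 0.09 in knockdown cells did not pass (limma, adjusted p = 0.055 and 0.20), although PE and PBS libraries did not overlap. Mybpc3 (ENSMUSG00000002100.16, chromosome 2, 91118144 to 91136516, plus strand), cardiac myosin-binding protein C, had 31633, 40286 and 40585 in PE knockdown and 52820, 46192 and 37916 in PE control libraries. It had 58173, 67198 and 54723 in PBS knockdown and 60370, 50470 and 62937 in PBS control libraries. The knockdown libraries did not overlap between PE and PBS, with a log2 change of -0.68 ± 0.15 (limma, adjusted p = 0.0021), and the control libraries overlapped. Ttn and Mybphl were called in no comparison of the main fit.

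The assembly and turnover genes moved in both directions. PE raised 2 and lowered 3 of 8 in control cells, and raised none and lowered 3 in knockdown cells. The muscle RING finger genes went apart in control cells: Trim63 (MuRF1), a ubiquitin ligase of sarcomere proteins, rose by 0.33 ± 0.10 (limma, adjusted p = 0.018), and Trim55 (MuRF2) fell. Trim55 (ENSMUSG00000060913.7, chromosome 3, 19644474 to 19692421, plus strand) had 3879, 3445 and 3479 in PE knockdown and 4947, 5305 and 5551 in PE control libraries. In PBS it had 6845, 6785 and 6941 in knockdown and 9467, 9271 and 9166 in control libraries. All 4 groups were separate, and PE lowered it by -0.93 ± 0.09 in knockdown and -0.82 ± 0.09 in control cells on the log2 scale (limma, adjusted p = 2.3e-07 and 1.1e-06).

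Fbxo32 (ENSMUSG00000022358.8, chromosome 15, 58175879 to 58214932, minus strand), the ubiquitin ligase subunit atrogin-1, had 1626, 1591 and 1663 in PE knockdown and 1003, 987 and 1116 in PE control libraries. It had 1830, 1795 and 1868 in PBS knockdown and 1703, 1679 and 1670 in PBS control libraries. The 3 PE control libraries were thus far below the other 9. Its log2 change with PE was -0.17 ± 0.09 in knockdown cells, which did not pass, and -0.70 ± 0.09 in control cells (limma, adjusted p = 0.16 and 4.5e-06). Smyd1 (ENSMUSG00000055027.18, chromosome 6, 71213940 to 71322233, minus strand), a lysine methyltransferase of myofibril assembly, had 9276, 8129 and 8339 in PE knockdown and 10212, 10540 and 10807 in PE control libraries, and 12368, 10649 and 12311 in PBS knockdown and 14053, 15965 and 13457 in PBS control libraries. PE and PBS libraries did not overlap in either cell group, and it fell by 0.46 ± 0.10 in both (limma, adjusted p = 0.0025 in knockdown and 0.0026 in control cells). Hspb7, a small heat shock protein of the heart, rose by 0.49 ± 0.13 in control cells (limma, adjusted p = 0.0075).

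Unc45b (ENSMUSG00000018845.15, chromosome 11, 82910550 to 82943403, plus strand), the myosin chaperone, had 2855, 3820 and 3802 in PE knockdown and 5482, 4767 and 3971 in PE control libraries, and 4830, 5116 and 4546 in PBS knockdown and 5062, 4258 and 5068 in PBS control libraries. PE lowered it by -0.48 ± 0.13 in knockdown cells (limma, adjusted p = 0.0084), where the groups were apart, and in control cells they overlapped. The small heat shock protein Cryab and the co-chaperone Bag3 were called in no comparison of the main fit. With Tnnt2, Tnni3, Tmod1, Ttn, Mybphl, Actn2 and Ldb3 this makes 9 such members.

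The balance of higher and lower members depended on scaling, and in knockdown cells its direction changed. With values rescaled to the same total per library, which moved the median of all genes by -0.15 in control and -0.13 in knockdown cells, PE raised 15 and lowered 10 members in control cells and raised 11 and lowered 12 in knockdown cells. The share of higher genes among all called genes then fell to 28.2% in control cells, against 49.5% before, and to 30.7% in knockdown cells, against 48.9%. It ended the calls of Tnnt1, Tnnc1, Flnc and Trim63 in control cells (limma, adjusted p = 0.053 to 0.22) and of Tnnt1, Tpm1, Tcap and Nebl in knockdown cells (0.070 to 0.12), and made the fall of Fbxo32 in knockdown cells pass (0.014). Leaving out 1 library ended the call of 6 members in control cells. These were Tnnt1 without PBS control replicate 3 or PE control replicate 1 (limma, adjusted p = 0.069 and 0.072), Tnnc1 without PBS control replicate 1 or 3 or PE control replicate 1 or 2 (0.055 to 0.079) and Myom2 without PE control replicate 3 (0.058). Flnc lost its call without any PBS control library, PE control replicate 1 or 2 or PE knockdown replicate 2 (limma, adjusted p = 0.052 to 0.20). Hspb7 did so without PBS control replicate 1 or 3 (0.050 and 0.052) and Trim63 without PBS control replicate 1 or 3 or PE control replicate 1 (0.078 to 0.081; limma adjusted p).

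In knockdown cells 7 calls ended in the same way. A fit to the 6 knockdown libraries alone ended those of Tnnt1, Tpm1, Nebl, Synpo2l, Palld and Klhl31 (limma, adjusted p = 0.059 to 0.078). Tnnt1 lost its call without PBS knockdown replicate 2 or PE knockdown replicate 1 (limma, adjusted p = 0.10 for both) and Tpm1 without PBS knockdown replicate 2 or 3 or PE knockdown replicate 1 or 3 (0.056 to 0.068). Tcap did so without PBS or PE knockdown replicate 3 (0.059 and 0.054), Klhl31 without PBS knockdown replicate 3 or PE knockdown replicate 2 (0.095 and 0.072) and Unc45b without PE knockdown replicate 1 (0.055; limma adjusted p). For Synpo2l and Palld, PBS knockdown replicate 2 and PE knockdown replicates 2 and 3 were each needed (limma, adjusted p without one of them 0.086 to 0.12 for Synpo2l and 0.066 to 0.073 for Palld).

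Where the knockdown changed a member, it was lower in all cases but 1. In PE-treated cells 17 of 43 were lower and 1 was higher than with the control GapmeR, against 7.14% of all 21799 genes tested that were lower and 4.57% that were higher. In PBS 9 were lower and none higher, against 3.21% and 1.36%. Mitochondrial genes held 4.33% to 7.55% of reads in PBS knockdown and 8.19% to 10.7% in PBS control libraries, which did not overlap, and 6.55% to 10.04% in PE knockdown and 6.36% to 9.28% in PE control libraries; the part of this in the members' changes was not tested. Of the 12113 genes averaging at least 50, the knockdown lowered 1436 and raised 801 in PE and lowered 644 and raised 272 in PBS. The median change of the members was -0.39 in PE, with 40 of 43 below 0, and -0.29 in PBS, with 34 below 0, while the median of those 12113 genes was -0.0042 in PE and 0.0083 in PBS. All 9 members called in PBS were among the 17 called lower in PE. Rescaling to the same total moved the median of all genes by 0.09 in PE and 0.07 in PBS and left 15 members lower and 1 higher in PE and 7 lower in PBS, while 57.7% and 49.0% of all called genes were then higher, against 39.1% and 29.8% before.

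Those 9 were Xirp2, Fhl1, Klhl31, Tcap, Pdlim5, Mypn, Myom1, Lmod3 and Trim55. Xirp2 changed most, by -1.05 ± 0.18 in PE and -1.20 ± 0.18 in PBS (limma, adjusted p = 5.9e-04 and 4.5e-04), with the values given above. Fhl1 (ENSMUSG00000023092.17, chromosome X, 56731787 to 56793346, plus strand) had 8327, 7475 and 7840 in PE knockdown and 11527, 11882 and 12573 in PE control libraries, and 5196, 5155 and 5230 in PBS knockdown and 7310, 7493 and 7011 in PBS control libraries. Knockdown libraries were below control libraries in PE and in PBS, and the knockdown lowered it by -0.61 ± 0.09 in PE and -0.48 ± 0.09 in PBS (limma, adjusted p = 1.1e-04 and 0.0029). Klhl31 fell by 0.50 ± 0.10 in PE and 0.44 ± 0.10 in PBS (limma, adjusted p = 0.0023 and 0.015).

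Of the Z-disc genes 6 of 12 were lower with the knockdown in PE and 3 in PBS, none higher. Tcap (ENSMUSG00000007877.3, chromosome 11, 98383811 to 98384953, plus strand), one of the shortest members, had 561, 568 and 607 in PE knockdown and 1149, 1001 and 853 in PE control libraries, and 448, 457 and 406 in PBS knockdown and 666, 785 and 656 in PBS control libraries. No knockdown library reached its control group, and the log2 change was -0.78 ± 0.12 in PE and -0.68 ± 0.12 in PBS (limma, adjusted p = 1.1e-04 and 0.0013). Mypn (ENSMUSG00000020067.9, chromosome 10, 63115795 to 63203952, minus strand) had 2863, 2398 and 2199 in PE knockdown and 4800, 4357 and 4200 in PE control libraries, and 1348, 2044 and 1557 in PBS knockdown and 2064, 2452 and 2267 in PBS control libraries. Its change was -0.85 ± 0.13 in PE, with the groups far apart, and -0.47 ± 0.13 in PBS, where they nearly met (limma, adjusted p = 2.0e-04 and 0.046). Pdlim5 fell by 0.39 ± 0.10 and 0.35 ± 0.10 in PE and PBS (limma, adjusted p = 0.0098 and 0.044). In PE alone Palld fell by 0.67 ± 0.13, Nrap by 0.57 ± 0.11 and Synpo2l by 0.56 ± 0.15 (limma, adjusted p = 0.0017, 0.0015 and 0.017), and for these 3 the difference between PE and PBS did not pass the test (adjusted p = 0.73, 0.49 and 0.88).

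In the M-band, Myom1 (ENSMUSG00000024049.16, chromosome 17, 71002633 to 71126856, plus strand) had 11702, 10852 and 11157 in PE knockdown and 21024, 19900 and 19888 in PE control libraries, and 9747, 8768 and 9597 in PBS knockdown and 14182, 16244 and 14563 in PBS control libraries. Every knockdown library was below every control library, and the change was -0.85 ± 0.10 in PE and -0.68 ± 0.10 in PBS (limma, adjusted p = 6.8e-06 and 2.8e-04). Titin lay at 40097 to 45427 in PE knockdown and 52460 to 57887 in PE control libraries, which did not overlap, with a change of -0.40 ± 0.15 in PE and -0.49 ± 0.15 in PBS that missed the threshold (limma, adjusted p = 0.094 and 0.070). It was called with the other tools, at an adjusted p in PE and PBS of 0.040 and 0.025 with edgeR, 0.024 and 0.0072 with DESeq2 and 0.033 and 0.018 with limma-voom. Without PBS knockdown replicate 1 it was called in PE (limma, adjusted p = 0.048), without PBS control replicate 2 in PBS (0.043) and without PBS knockdown replicate 2 in both (0.044 and 0.026).

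Along the thin filament, Lmod3 (ENSMUSG00000044086.9, chromosome 6, 97238534 to 97252759, minus strand) had 908, 853 and 754 in PE knockdown and 1692, 1437 and 1388 in PE control libraries, and 996, 731 and 890 in PBS knockdown and 1138, 1380 and 1202 in PBS control libraries. Knockdown and control libraries did not overlap, with changes of -0.84 ± 0.12 in PE and -0.51 ± 0.12 in PBS (limma, adjusted p = 9.0e-05 and 0.018). Its relative Lmod2 fell by 0.55 ± 0.14 in PE (limma, adjusted p = 0.014). Tpm1 (ENSMUSG00000032366.16, chromosome 9, 67022590 to 67049406, minus strand), at 97400 to 106475 in PE knockdown and 155734 to 171752 in PE control libraries, fell by 0.68 ± 0.16 (limma, adjusted p = 0.0065), and its change of -0.51 ± 0.16 in PBS did not pass (limma, adjusted p = 0.076). That change was called with edgeR, DESeq2 and limma-voom (adjusted p = 0.013, 0.0015 and 0.0079) and by limma without PBS knockdown replicate 1 (0.034). No troponin gene was called with the knockdown, in PE or in PBS.

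In the remaining groups Xirp1 fell by 0.62 ± 0.16, Hspb7 by 0.52 ± 0.13 and Unc45b by 0.44 ± 0.13 in PE (limma, adjusted p = 0.015, 0.010 and 0.030), and Trim55 fell by 0.55 ± 0.09 in PE and 0.44 ± 0.09 in PBS (limma, adjusted p = 3.2e-04 and 0.0063). Ankrd1 was lower in every knockdown library than in any control library of the same treatment, but its changes of -0.33 ± 0.14 in PE and -0.41 ± 0.14 in PBS did not pass (limma, adjusted p = 0.15 and 0.12). They were called with DESeq2 (adjusted p = 0.032 in PE and 0.014 in PBS) and limma-voom (0.043 and 0.028), and in PBS by limma without PBS knockdown replicate 1 (0.034). Des and Csrp3 had -0.45 ± 0.16 and -0.38 ± 0.14 in PE, both short of the threshold (limma, adjusted p = 0.079 and 0.099). Des was called with edgeR, DESeq2 and limma-voom (adjusted p = 0.036, 0.024 and 0.031) and by limma without PBS control replicate 2, PBS knockdown replicate 2 or PE knockdown replicate 1 (0.038 to 0.048), and Csrp3 by limma without PBS knockdown replicate 1 or 2 (0.046 and 0.040). Fbxo32 was the single member that the knockdown raised, by 0.65 ± 0.09 in PE (limma, adjusted p = 3.1e-05), and its change in PBS was 0.12 ± 0.09 (limma, adjusted p = 0.51).

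**Figure D4:**
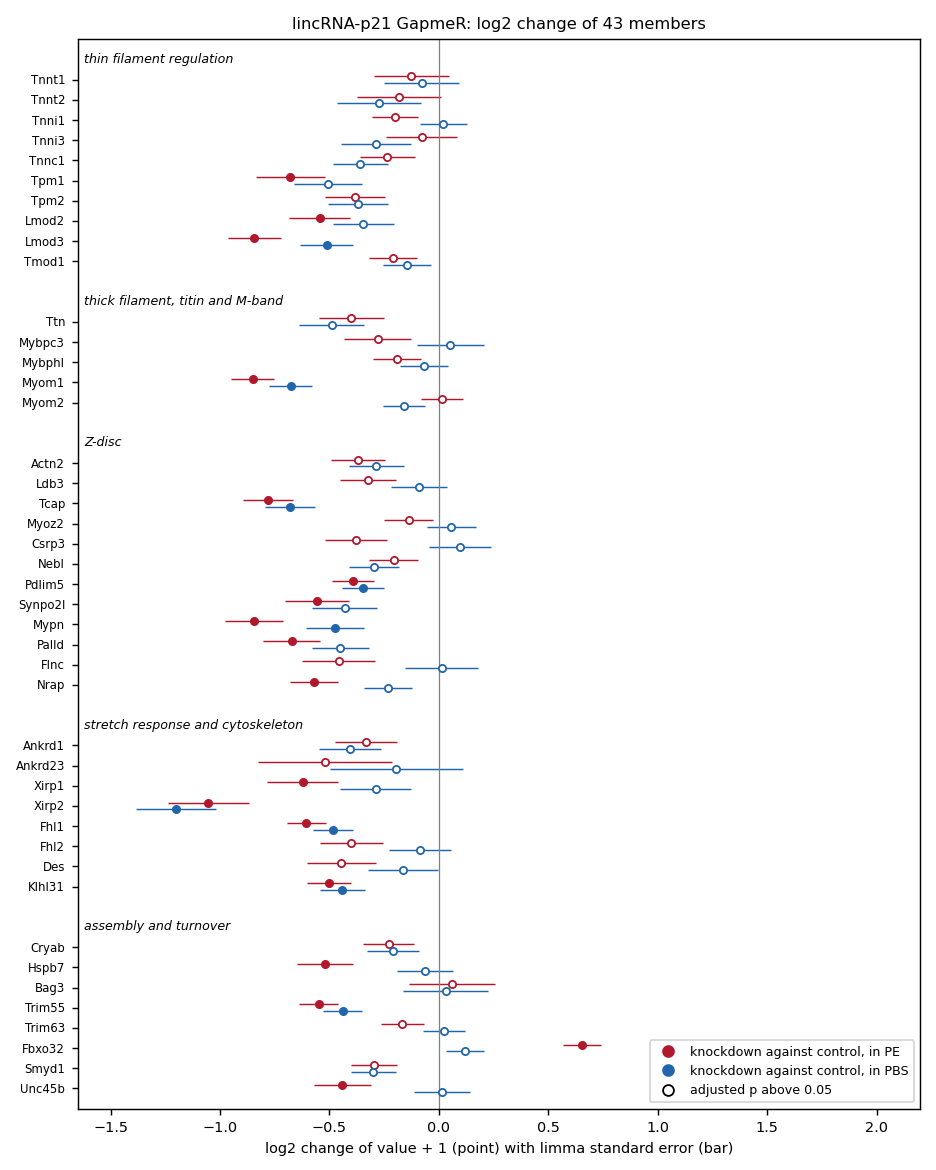
Log2 change with the lincRNA-p21 GapmeR against the negative-control GapmeR for the 43 members, ordered by role, with limma standard errors as bars; colours separate PE from PBS, and open points have an adjusted p above 0.05. In PE 40 of 43 points and in PBS 34 of 43 lie left of 0, and Fbxo32 in PE, at 0.65, stands to the right.

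Summed over the 43 members, the share of library signal was 3.63%, 3.51% and 3.53% in PE knockdown and 4.69%, 4.28% and 4.15% in PE control libraries. It was 3.56%, 3.43% and 3.34% in PBS knockdown and 3.84%, 4.14% and 3.88% in PBS control libraries. Knockdown libraries were below control libraries in PE and in PBS, and PE control libraries were above PBS control libraries. The differences were -0.818 percentage points for the knockdown in PE, -0.510 for the knockdown in PBS and 0.419 for PE in control cells (exact permutation test, two-sided, p = 0.1 for each, the smallest possible). For PE in knockdown cells the difference was 0.111 (p = 0.3, exact permutation test, two-sided).

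Leaving out 1 library ended 5 knockdown calls in PE. Without PE control replicate 1 these were Lmod2, Synpo2l, Xirp1, Hspb7 and Unc45b (limma, adjusted p = 0.090, 0.076, 0.11, 0.051 and 0.18), and without PE knockdown replicate 3 Lmod2, Synpo2l, Xirp1 and Hspb7 (0.074, 0.099, 0.088 and 0.059; limma adjusted p). PE knockdown replicate 2 was needed for Lmod2, Synpo2l and Xirp1 (limma, adjusted p without it 0.080, 0.078 and 0.058), PE control replicate 3 for Synpo2l (0.051) and PE control replicate 2 and PE knockdown replicate 1 for Unc45b (0.10 and 0.15). In PBS, Lmod3 lost its call without PBS control replicate 2 or 3 or PBS knockdown replicate 2 (limma, adjusted p = 0.053 to 0.097) and Klhl31 without PBS control replicate 2 (0.079). The calls of Pdlim5 and Mypn in PBS, with adjusted p just under the threshold, were lost in 10 and 9 of the 12 fits without 1 library (limma, adjusted p = 0.057 to 0.16 and 0.060 to 0.17). Rescaling ended the calls of Unc45b and Pdlim5 in PE (0.11 and 0.054) and of Pdlim5 and Mypn in PBS (0.13 and 0.067), and a fit to the 6 PBS libraries alone those of Lmod3, Pdlim5, Mypn, Klhl31 and Trim55 (0.059 to 0.17; limma adjusted p).

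Whether PE acted differently in knockdown and control cells was asked by the interaction. It was passed by 0.0550% of all genes tested (12 of 21799, limma) and by 0 of the 43 members. Tested on the recovered reads, edgeR called 0 members and DESeq2 1, Fbxo32. Fbxo32 had the largest difference between the PE responses, 0.53 ± 0.12 (limma, adjusted p = 0.12), and Csrp3 had -0.47 ± 0.20 and Hspb7 -0.46 ± 0.18 (limma, adjusted p = 0.45 and 0.42). An earlier analysis of these data had set 3 libraries aside as far from their groups, a choice made after the data were seen that leaves in PBS knockdown replicate 1, which deviates as much (0.121). With replicate 1 of PE knockdown and replicate 2 of both PBS groups left out together, 4 members passed: Fbxo32 with 0.52 ± 0.11, Lmod2 with -0.58 ± 0.12, Lmod3 with -0.59 ± 0.13 and Hspb7 with -0.56 ± 0.13 (limma, adjusted p = 0.027, 0.027, 0.035 and 0.042). In that fit the knockdown in PE lowered 30 and raised 1 of the 43 members, and 2644 of all genes tested were called lower and 2028 higher.

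Gene length moves with the knockdown in these data, and the members were set beside it. Over the 12099 genes that averaged at least 50 and had an annotated span, the Spearman correlation between genomic span and the knockdown's log2 change was -0.35 in PE and -0.36 in PBS. Over the 43 members it was -0.09 and -0.14; genes share the libraries and their depth, so these are descriptions without a p. Members under 20 kb (19 genes, among them Tcap and Lmod3, whose values are above) had a median change in PE of -0.38, with 6 called lower and none higher, where all genes of that length had a median of 0.06. The 6 members over 100 kb had a median of -0.40, with 3 lower, and all 1702 genes of that length had -0.33. Of those 1702 genes, 731 were called lower and 26 higher in PE. Among all genes under 20 kb, more were called higher (476 of 5240) than lower. The part of span in the members' changes was not tested.

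Other genes of the same structures were taken from 5 lists of 71 genes. In control cells 30 of 69 tested were higher and 6 lower with PE, against 12.6% and 12.8% of all 21799 genes tested. In knockdown cells 22 were higher and 8 lower, against 13.4% and 14.0%. The shares for control cells apply to the counts per list below as well. All 4 tested genes among the other troponins and tropomyosins were higher in control cells, led by Tnnt3, fast skeletal troponin T, at 2.61 ± 0.29, with averages of 149.5 ± 23.6 normalised reads in PE control and 25.9 ± 14.0 in PBS control libraries (SD, n = 3; limma, adjusted p = 1.3e-06). Tnni2, fast skeletal troponin I, rose by 0.97 and Tpm4 by 0.72. Of the costamere and intermediate filament genes, which tie the Z-disc to the membrane, 10 of 16 rose and none fell, with Synm, synemin, at 1.74, Ilk, the integrin-linked kinase, at 1.08 and Plec, plectin, at 0.66. Among other Z-disc and thin filament genes 9 of 23 rose and 2 fell, with the non-muscle alpha-actinin Actn1 at 1.67 and the skeletal alpha-actinin Actn3 at -1.58. Mybph and Mybpc2, myosin-binding proteins, rose by 2.19 and 1.55. Adora1 covers 49.9% of the exon length of Mybph and averaged 1315 normalised reads against 9.13, and Taf10 covers 76.7% of that of Ilk and averaged 1825 against 179, so the values of Mybph and Ilk may hold reads of these neighbours. Of the other quality control genes 5 of 17 rose and 4 fell, with the kelch genes Kbtbd13, Klhl41 and Klhl40 at -1.50, -1.33 and -1.15.

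With the knockdown, 21 of these 69 genes were lower and none higher in PE, against 7.14% and 4.57% of all genes tested. In PBS 10 were lower and 1 higher, against 3.21% and 1.36%. The costamere genes held 8 of the 21: Dmd, dystrophin, changed by -1.67 in PE and -1.34 in PBS, and Lims2 and Tln2, partners of integrin adhesions, by -1.23 and -1.20 in PE. Neb, nebulin, and Cmya5, myospryn, changed by -0.95 and -0.91, Klhl40, a kelch protein that stabilises Lmod3 in skeletal muscle, by -1.35, and Lmod1, the smooth muscle leiomodin, by -0.83 in PE. The gene called higher in PBS was Hspb8, a small heat shock protein and partner of Bag3, at 0.48.

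Markers of other cells moved with PE as well. In bulk RNA fewer cells of a type and less RNA per cell cannot be told apart. The 12 fibroblast markers summed to 34941 to 38906 in PE knockdown and 42548 to 46613 in PE control libraries, and to 67695 to 80372 in PBS knockdown and 74409 to 80755 in PBS control libraries. PE lowered 11 of these 12 markers in knockdown and 10 in control cells and raised none. Of all genes tested, PE lowered 14.0% in knockdown and 12.8% in control cells. PE raised 10 of 12 endothelial markers in control cells, where it raised 12.6% of all genes tested. Their sums were 12764 to 14290 in PE control and 6831 to 7817 in PBS control libraries. In knockdown cells the endothelial sums were also apart, at 10434 to 12337 with PE and 6397 to 8569 with PBS. The 12 leukocyte markers summed to 3605 to 4201 in PE knockdown and 3818 to 4412 in PE control libraries. In PBS they summed to 2723 to 2871 in knockdown and 2760 to 3429 in control libraries. The 7 epicardial markers summed to 6342 to 6452 in PE knockdown and 8031 to 8773 in PBS knockdown libraries. In control cells the epicardial sums overlapped, at 7485 to 7559 with PE and 7543 to 8057 with PBS. The 11 smooth muscle and pericyte markers, some of which share a contractile role with Tpm1, Tpm2 and Des, summed to 40497 to 44144 in PE knockdown and 56824 to 57967 in PE control libraries. In PBS these 11 summed to 23269 to 25909 in knockdown and 28004 to 32133 in control libraries. The knockdown in PE lowered 4 of them, 2 of 12 fibroblast and 3 of 12 endothelial markers, and raised none. Of all genes tested, it lowered 7.14% and raised 4.57%, shares that apply to the cardiomyocyte markers below as well. The 13 cardiomyocyte markers summed to 691063 to 735297 in PE knockdown and 849836 to 1113735 in PE control libraries, and to 493304 to 557222 in PBS knockdown and 619062 to 653129 in PBS control libraries, with 5 lower and none higher with the knockdown in PE. No marker of these lists was at 0 in every library, and their part in the members' changes was not tested.

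Exons of 12 members overlap an exon of another gene, and whether reads were counted by strand is not stated in the labels or the table. In no case was the other gene at least as abundant: the largest share was 78.2% of the exon length of Ankrd23, with a gene that averaged 0.0905 normalised reads, then 32.6% of Tmod1 and 17.0% of Cryab.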

How the data were processed

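Per the submitters' processing notes, STAR, SAMtools and featureCounts were used on build GRCm38.p6 for the 12 libraries; their versions, the gene annotation and the strand setting are not given in the sources used here. Values in the deposited table are a signal per gene, made by dividing each library's read counts by its own size factor. Dividing by each library's step returned whole reads for all values (tolerance 0.001). The 43 members, the role groups and the other lists were chosen with earlier results of these data known.

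Tests covered the 21799 genes that averaged 1 or more, as log2(value + 1), a scale that understates the change of low genes. All 12 libraries entered 1 limma fit (limma 3.58.1, R 4.3.3, trended prior) with a mean for each of the 4 groups, with two-sided tests and Benjamini-Hochberg adjustment at 0.05 over all genes tested. Because the deposited values are scaled, limma was the main test, and edgeR 4.0.16, DESeq2 1.42.0 and limma-voom on the recovered reads were alternatives. Names and spans come from GENCODE release M21 (GRCm38), matched without version, which named 52135 of 55416 genes. Promoter windows are RefSeq's. Single values were compared by exact permutation over libraries (SciPy 1.17.1).

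All 43 members are accounted for: each called member is named, and the 5 largest changes in each direction have every library's value. From each other list up to 3 called genes with the largest change are named. Other alternatives were a pseudocount of 0.1, no filter, a CPM of at least 1 in 3 libraries, rescaling to the same total, the 6 libraries compared alone, a replicate block, each library left out, and 3 libraries left out together. Where a group kept 2 libraries, limma pooled the spread over groups. The fit was tested on simulated data.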

Additional observations from a re-analysis of the deposited data

How the results depend on the processing

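No change of a called member reversed under any alternative run. Of the members called with PE in control cells 19 of 25 passed under every alternative, with PE in knockdown cells 16 of 24, with the knockdown in PE 12 of 18 and in PBS 4 of 9. The number of members called with the knockdown in PE was 31 without the 3 libraries named above, which were chosen after the data were seen, against 18. In PBS, where it was 9, DESeq2 gave 15 and a fit to the 6 libraries compared gave 4. For the interaction, DESeq2 called 1 member and the fit without the 3 libraries 4, against 0. Leaving out 1 library gave 20 to 30 members called with PE in control cells, 20 to 25 in knockdown cells, 13 to 25 with the knockdown in PE and 6 to 11 in PBS. Over all genes, 2553 were called with the knockdown in PE, 1671 to 3502 without 1 library and 4672 without the 3. In PBS 997 were called, 510 to 1181 without 1 library, 392 from the 6 libraries compared and 1865 without the 3. The interaction had 12 calls, 3 to 22 without 1 library, 124 with DESeq2 and 143 without the 3. The cause of these shifts was not tested.

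The replicate numbers carry no stated pairing, and residuals of same-numbered libraries correlated between -0.0866 and 0.0448, with 3 of 12 libraries correlating best, outside their group, with their own number. With the replicate block, 24 members were called with PE in control cells, 24 in knockdown cells, 17 with the knockdown in PE and 7 in PBS, and of all genes 5171, 5708, 2269 and 822, with 12 for the interaction. A fit of the interaction to only the libraries compared equals the main one and was not run separately. With 3 libraries per group, calls near the threshold depend on the tool, as for Ttn, Tpm1, Des and Ankrd1 with the knockdown, and Ankrd23 rests on few reads.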
